A study of Mus musculus with 2 samples.

Results

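Forkhead (Fox) transcription factors share a winged-helix DNA-binding domain, and the letter after Fox marks the subfamily. Here 10 of them that are known from the developing head were followed: Foxc1, Foxc2, Foxd1, Foxf1, Foxf2, Foxl1, Foxl2, Foxp1, Foxp2 and Foxp4. They were taken by symbol from a table of 32285 genes, and the choice was made with earlier results of these libraries known. In facial mesenchyme, the loose tissue that forms bone, cartilage and connective tissue, several Foxc, Foxd, Foxf and Foxl genes are known targets of Hedgehog signalling and help to pattern the pharyngeal arches. Foxp1, Foxp2 and Foxp4 belong to another subfamily, act mainly as repressors, and are used in many tissues, the nervous system among them.

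The counts came from sorted cranial neural crest cells (CNCCs) of E11.5 mouse heads. A Wnt1CRE driver, active in the neural crest and in part of the dorsal neural tube, switched on GFP from the r26 mTmG reporter (mTmG/mTmG in both groups), and the GFP-positive fraction of tissue rostral to the otic placode was kept. The control library (Tfap2HET) carried Tfap2a wt/flox and Tfap2b wt/flox, so the driver also removed 1 copy of each gene in control cells. The mutant library (Tfap2NCKO) carried flox/flox at both genes. Tfap2a and Tfap2b encode the AP-2 transcription factors whose loss in CNCCs was the question of the design. Each library pooled cells of 2 sibling-matched embryos, so each group had 1 library, no test between groups was possible, and no p-value is given. All intervals are 95% intervals for counting error only and do not hold the spread between embryos.

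After the removal of cells with too few genes, too many genes or much mitochondrial RNA, 5625 control and 5587 mutant cells were kept, with medians of 13478 and 12234 UMIs (transcript molecules) per cell. The barcodes of 5 kept cells occurred in both libraries. Xist had a UMI in 98.8% of the control cells and in 0.107% of the mutant cells, and a Y-linked transcript in 82.0% of mutant cells but in 2 control cells. Genotype, embryo pool and sex therefore cannot be told apart in any ratio below. Clustering, from which the forkhead genes were left out, gave a mesenchyme class (3755 control and 2806 mutant cells), a neural class (1610 and 2580 cells) and a glia-like class (260 and 201 cells). All 8 mesenchyme markers and all 7 glia markers were higher in their class than in the other cells. The neural class was higher for all 7 neuron and all 7 brain progenitor markers. Within mesenchyme, clusters were named frontonasal-like (8 of 8 markers higher than in the other mesenchyme), maxillary-like (6 of 6) and mandibular-like (4 of 6). The other clusters kept the names of leading genes, Hoxa2/Emx2 and Vtn/Zic1. The Hoxa2/Emx2 cluster was also higher for 4 of the 6 mandibular markers, so that count is not particular to the mandibular-like cluster. A cluster led by neural genes held 39 control and 77 mutant cells, and 71.8% and 67.5% of these were called doublets.

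The targeted genes were lower in mutant mesenchyme but still counted. Tfap2a had 1131 control and 584 mutant UMIs, or 19.4 and 13.4 UMIs per 1000000 UMIs (CPM), a log2 ratio of mutant over control of -0.54 (-0.69 to -0.39). Tfap2b had 3287 and 2063 UMIs, a log2 ratio of -0.26 (-0.34 to -0.18). In the neural class both were lower too, at log2 ratios of -0.33 for Tfap2a and -0.34 for Tfap2b. In the glia-like class Tfap2a was higher (394 and 389 UMIs, 78.0 and 119 CPM, 0.61, 0.40 to 0.81) and Tfap2b lower (-0.27, -0.41 to -0.13). Some mesenchyme groups also went the other way. Tfap2b was higher in the mutant in the Hoxa2/Emx2 (39 and 93 UMIs, 1.21, 0.65 to 1.79) and maxillary-like clusters (30 and 53 UMIs, 1.24, 0.57 to 1.94) and in finer mandibular-like cells led by Gpr50 (7 and 35 UMIs, 2.99, 1.79 to 4.40), and Tfap2a was higher in the Hoxa2/Emx2 cluster (166 and 217 UMIs, 0.34, 0.043 to 0.64). Libraries of this kind count transcript 3′ ends, so a count does not tell an intact transcript from one of the recombined allele.

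The members lie on 5 chromosomes of the mm10 build (GENCODE M21 annotation), and some stand in tight clusters. On the plus strand of chromosome 8, Foxf1 (chr8:121084386-121088144, 2 exons) is followed by Foxc2 (chr8:121116171-121118895, 1 exon) after 28.0 kb and by Foxl1 (chr8:121127940-121130644, 1 exon) after another 9.04 kb. On the plus strand of chromosome 13, Foxf2 (chr13:31625816-31631403, 2 exons) and Foxc1 (chr13:31806633-31812476, 1 exon) are 175 kb apart, and Foxd1 (chr13:98354242-98359305, 1 exon) lies far from both. Foxl2 (chr9:98955288-98958543, 1 exon, plus strand) stands alone. The Foxp genes are much longer, with up to 20 exons: Foxp1 (chr6:98925338-99522721, minus strand, 597 kb), Foxp2 (chr6:14901349-15441977, plus strand, 541 kb) and Foxp4 (chr17:47867133-47924645, minus strand, 57.5 kb).

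Because the design deletes 2 AP-2 genes, the promoters were searched for the palindromic AP-2 core GCCNNNGGC. RefSeq windows of 300 bases (250 before to 50 after a start site, GRCm38.p6) were matched for 6 of the 10 members, 8 windows in all. Foxc2, Foxf1, Foxl1 and Foxp2 were not matched. The core was found once in 4 of the 8 windows, in Foxc1, Foxf2, Foxl2 and Foxp4, against 16.6% of all 32851 windows. The 4 stretches are shown with the core in capitals, each 5′ to 3′ on the strand of its gene.
Foxc1, chr13:31806500-31806528, plus strand: gcagagctcgGCCGCTGGCtcattcacag
Foxf2, chr13:31625830-31625858, plus strand: caaggagccgGCCGGAGGCtcggaagagg
Foxl2, chr9:98955444-98955472, plus strand: actcccgatgGCCAGAGGCtgacttccac
Foxp4, chr17:47924845-47924873, minus strand: tcttcggcttGCCGCTGGCcgcctctcag
In Foxc1, Foxl2 and Foxp4 the core lies before the start site, at bases -136, -153 and -231 from the RefSeq start, while in Foxf2 it lies after it, at base 25. The RefSeq start of Foxl2 lies 319 bases inside the GENCODE gene given above, so its stretch is upstream of the former and within the latter. For Foxc1 and Foxp4 the starts differ by 13 bases. A letter match is not evidence of binding. The GLI motif GACCACCCA, the site read by the Hedgehog effectors, was searched on both strands and was in none of the 8 windows and in 0.253% of all windows.

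Before any comparison of genotypes, each gene was placed among the groups of cells. Foxc1, Foxc2, Foxd1, Foxf1, Foxf2, Foxl1 and Foxl2 were mesenchyme genes, with between 94.8% and 98.1% of their UMIs in the mesenchyme class in either library. Foxp1, Foxp2 and Foxp4 were shared with the neural and glia-like classes, and between 64.8% and 82.5% of their UMIs were in mesenchyme. Among cells thinned to 5000 UMIs, Foxc1 was counted in 15.8% of control mesenchyme cells (26.9% without thinning) but in 0.519% of control neural cells (1.80% without thinning). Foxd1 was counted in 17.0% and 1.82% of these cells (25.9% and 3.48% without thinning). The median depth was 14558 UMIs in control mesenchyme and 10463.5 in control neural cells. The background from free RNA was not estimated, and 2.67% of control and 3.72% of mutant neural cells were called doublets.

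**Figure D1:**
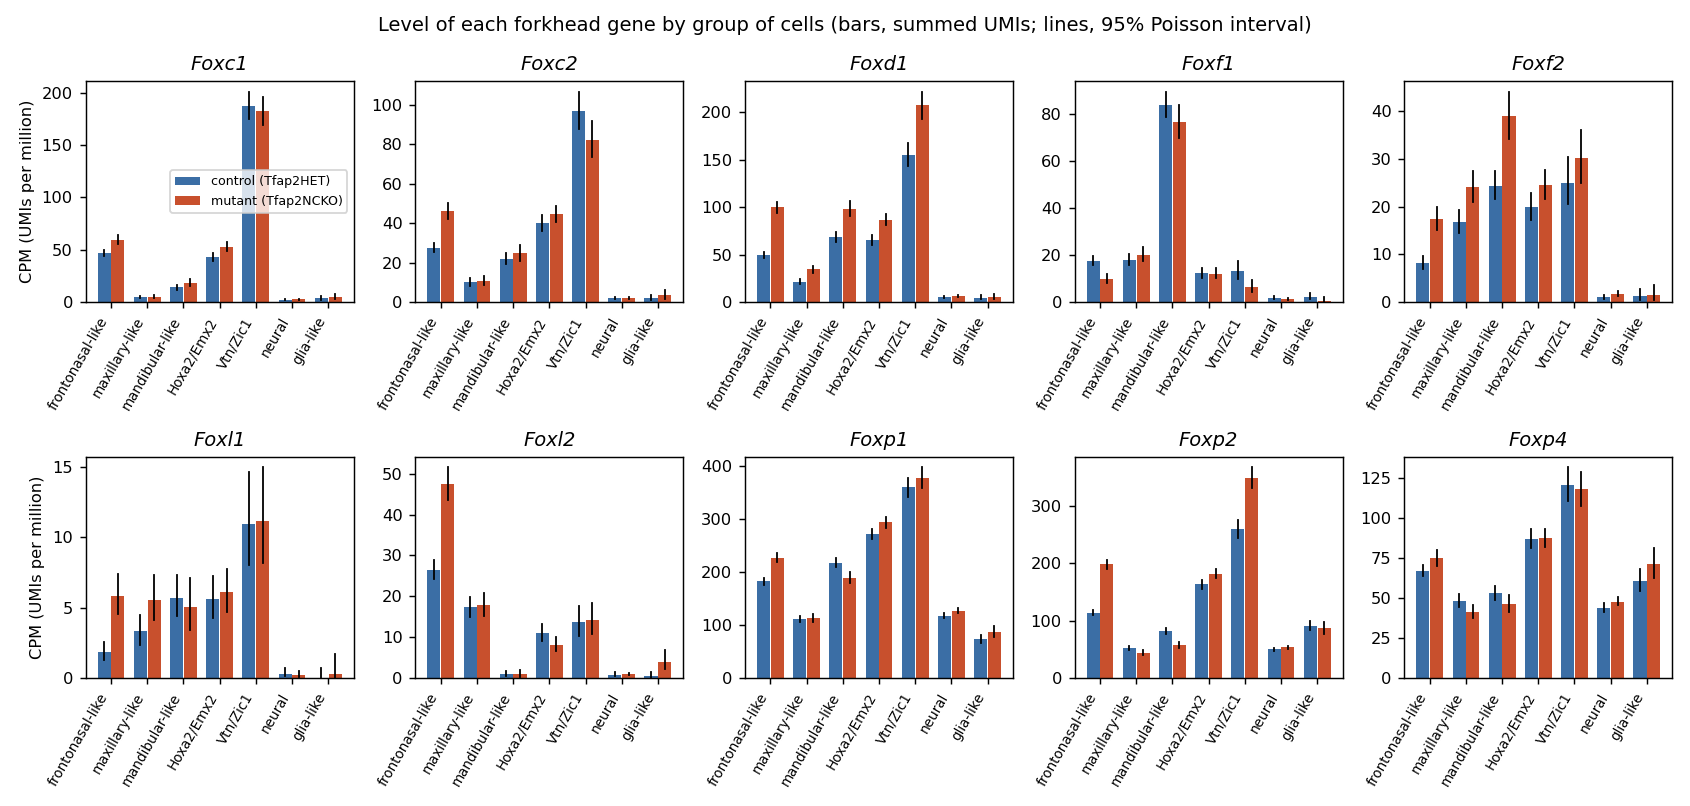
Level of each forkhead gene (CPM) in 5 mesenchyme clusters and in the neural and glia-like classes. Bars are UMIs summed over the cells of 1 library, blue for control and orange for mutant, and lines are 95% Poisson intervals; each panel has its own axis from 0. Foxc1, Foxc2 and Foxd1 are highest in the Vtn/Zic1 cluster, Foxf1 in the mandibular-like cluster and Foxl2 in the frontonasal-like cluster.

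The Foxc genes, which are needed for the eye region, the meninges and the skull, were both highest in the Vtn/Zic1 and lowest in the maxillary-like cluster. In control cells Foxc1 was at 187 CPM in the Vtn/Zic1 cluster, 47.0 in the frontonasal-like, 43.1 in the Hoxa2/Emx2, 14.1 in the mandibular-like and 4.80 in the maxillary-like cluster. The frontonasal-like and Hoxa2/Emx2 values lie within each other's counting error. Foxc2 was at 96.8, 27.5, 39.9, 21.8 and 10.1 CPM in the same clusters. Unlike Foxc1, it was thus higher in the Hoxa2/Emx2 than in the frontonasal-like cluster. Foxd1, a gene of stromal and meningeal mesenchyme, was at 155, 49.99, 65.5, 68.8 and 21.7 CPM. The Hoxa2/Emx2 and mandibular-like levels of Foxd1 lie within each other's counting error.

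Foxf1, a regulator of mesenchyme beside Hedgehog-producing epithelia, was mainly a mandibular gene, at 83.9 CPM in the control mandibular-like cluster and between 12.3 and 18.1 CPM in the other 4. When the mesenchyme was split more finely, nearly all of this signal fell in a Gpr50-led part of the mandibular-like cells (176 CPM, 892 UMIs), with 7.68 CPM in the Lratd1-led part. Foxf2, which is needed for palate growth, was spread more evenly, from 8.25 CPM in the frontonasal-like cluster to 25.03 in the Vtn/Zic1 cluster. The Vtn/Zic1, mandibular-like (24.3) and Hoxa2/Emx2 (19.8) levels of Foxf2 have overlapping intervals. On the finer clusters, the Gpr50-led cells were also the highest for Foxf2, at 44.6 CPM. A finer cluster led by Cyp26a1 and Shisa3 was close, at 40.3 CPM on 70 control UMIs.

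Foxl1 was the scarcest, with 244 UMIs over all control mesenchyme cells, and ran from 1.85 CPM in the frontonasal-like to 10.97 CPM in the Vtn/Zic1 cluster. Foxl2, known from the ovary and from periocular mesenchyme, was at 26.4 CPM in the frontonasal-like, 17.3 in the maxillary-like and 0.893 in the mandibular-like cluster. Its finer maximum was 40.6 CPM, in frontonasal-like cells led by Gata3. Foxp1, Foxp2 and Foxp4 were all highest in the Vtn/Zic1 cluster, at 359, 260 and 121 CPM, and all lowest of these 5 clusters in the maxillary-like one, at 111, 52.3 and 48.4 CPM. Outside mesenchyme, Foxp2 reached 252 CPM in a small group of control neurons led by Sim1 (83 cells), against 49.9 CPM in the whole control neural class.

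The likeness of the profiles was measured over 8 groups of cells (the mesenchyme clusters, neural and glia-like cells), as Pearson's r of log2(CPM + 1). These points share libraries and depth, and r is a description. Foxc2 and Foxd1 were alike in both libraries (r = 0.98 and 0.97), as were Foxc1 and Foxc2 (0.94 and 0.96), while Foxf1 and Foxp4 were not (0.094 and -0.24). Of 11640 genes, the one most like Foxf1 in control cells was Fendrr, the long noncoding RNA divergent to it, with r = 0.99 in control and 1.00 in mutant cells. The next were Ets2 (0.97) and Rnf216 (0.96). The closest genes to the others were Btbd2 for Foxc1 (0.97), Fstl1 for Foxc2 (0.99), Arl1 for Foxd1 (0.99), Flrt3 for Foxf2 (0.99), Irf9 for Foxl1 (0.98), Qdpr for Foxl2 (0.97), AI837181 for Foxp1 (0.98), Snx6 for Foxp2 (0.98) and Fbxw4 for Foxp4 (0.97). Each was picked as the highest of 11640 genes over 8 points, so a high control r follows from the choice. In mutant cells the r was 0.96 for Fstl1, 0.90 for Fbxw4, 0.83 for AI837181, 0.82 for Flrt3 and 0.76 for Snx6. It was 0.70 for Ets2, 0.68 for Btbd2, 0.66 for Qdpr, 0.61 for Arl1, 0.60 for Rnf216 and 0.032 for Irf9.

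In the mesenchyme as a whole, 9 of the 10 genes had a higher level in the mutant and Foxf1 a lower one. Foxd1 went from 57.5 to 91.9 CPM (3347 control and 4017 mutant UMIs), a log2 ratio of 0.68 (0.61 to 0.74). Foxf2 went from 16.3 to 25.2 CPM (951 and 1100 UMIs), a log2 ratio of 0.62 (0.50 to 0.75). Both lay 1.5-fold or more higher in the mutant, a mark that 3.03% of the 12545 genes with at least 100 UMIs passed. All 10 members met that minimum, and none was 1.5-fold lower (1.08% of genes). Foxd1, Foxf2, Foxp1 and Foxp2 were picked by the study of these libraries, so their direction is not independent evidence.

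Foxl1 followed at a log2 ratio of 0.57 (0.31 to 0.82, 244 and 271 UMIs). Foxp2 was at 0.42 (0.37 to 0.47, 6636 and 6655 UMIs), Foxl2 at 0.37 (0.23 to 0.50, 910 and 881 UMIs), Foxc2 at 0.35 (0.25 to 0.45, 1729 and 1655 UMIs) and Foxc1 at 0.33 (0.24 to 0.41, 2377 and 2237 UMIs). With each cell thinned to 5000 UMIs, the Foxc2 ratio was 0.19. Foxp1 differed little, at 0.17 (0.13 to 0.21, 11762 and 9928 UMIs), and the Foxp4 interval held 0, at 0.067 (-0.0015 to 0.14, 3930 and 3090 UMIs). Foxf1 was lower in the mutant, at -0.37 (-0.48 to -0.25, 1696 and 988 UMIs). It was closer to 0, at -0.19, when the shares of the mesenchyme clusters were held equal in both libraries. In all, 8 intervals lay above 0 (20.8% of genes) and 1 below (13.4%). The median log2 ratio was 0.36 over the members and 0.018 over all genes.

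Marker lists of other cells also differed between the libraries in mesenchyme. Summed over each list, neuron markers were at 41.3 CPM in control and 73.2 in mutant cells, mural markers at 127 and 175, and blood markers at 199 and 1.94. Barcodes with at least 100 haemoglobin UMIs, called haemoglobin-rich, numbered 1 in control and 0 in mutant mesenchyme. Without the neural-gene cluster and the haemoglobin-rich barcodes, each of the 10 ratios stayed within its counting interval. The part of the other lists in the result was not tested.

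The share of mesenchyme cells with a UMI moved the same way. In thinned cells Foxd1 was counted in 17.0% (control) and 25.8% (mutant), 8.84 points more (6.79 to 10.9). Foxf2 was counted in 6.88% and 9.93%, and Foxf1 in 10.6% and 8.76%. At least 3 of the 10 genes were counted in 30.1% of mesenchyme cells of the control and 40.1% of those of the mutant, against 3.18% and 3.90% of neural cells.

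**Figure D2:**
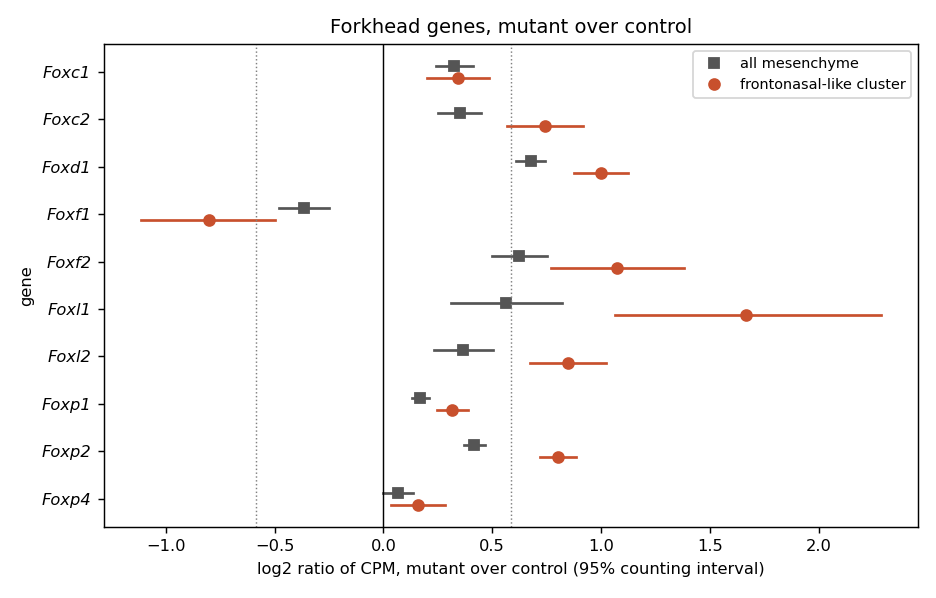
Log2 ratio of CPM, mutant over control, for each gene in all mesenchyme (grey squares) and in the frontonasal-like cluster (orange circles); lines are 95% counting intervals and dotted lines mark 1.5-fold. In the frontonasal-like cluster Foxl1, Foxf2 and Foxd1 lie at 1.66, 1.07 and 1.00, and Foxf1 at -0.80.

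Of the 5 clusters, the frontonasal-like one (1194 control and 745 mutant cells), the mesenchyme of the midface, had the largest median difference over the members. Foxd1 went from 49.99 to 100.1 CPM (975 and 1180 UMIs), a log2 ratio of 1.00 (0.88 to 1.13). Foxf2 went from 8.25 to 17.4 CPM (161 and 205 UMIs), a log2 ratio of 1.07 (0.77 to 1.38). Foxl1, scarce in control cells of this cluster, went from 1.85 to 5.85 CPM on 36 and 69 UMIs, a log2 ratio of 1.66 (1.06 to 2.29).

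Foxl2, which was already highest here, went from 26.4 to 47.5 CPM (515 and 560 UMIs, log2 ratio 0.85, 0.67 to 1.02). Foxp2 went from 114 to 199 CPM (2221 and 2342 UMIs, log2 ratio 0.80, 0.72 to 0.89). Foxc2 went from 27.5 to 46.1 CPM (537 and 543 UMIs, log2 ratio 0.74, 0.57 to 0.92). These 6 genes passed 1.5-fold upward, against 2.14% of the 10580 genes tested in this cluster. Foxc2 no longer passed it after thinning (0.52) or with equal weight per cell (0.56).

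Foxc1 (0.34, 0.20 to 0.49), Foxp1 (0.32, 0.24 to 0.39) and Foxp4 (0.16, 0.036 to 0.28) were higher by less. Foxf1 alone passed 1.5-fold downward (0.964% of genes), from 17.6 to 10.1 CPM on 343 and 119 UMIs, a log2 ratio of -0.80 (-1.11 to -0.50). So 9 intervals lay above 0 (14.3% of genes) and 1 below (9.89%), and the median was 0.77 over the members and 0.015 over all genes. When the mesenchyme was clustered without integration of the libraries, the frontonasal-like cluster was smaller (914 control and 389 mutant cells), and each of the 10 ratios kept its direction, with Foxl1 at 1.55, Foxd1 at 0.88 and Foxf1 at -0.52.

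Cells that held several members were also counted in the frontonasal-like cluster. At least 3 members were counted in 25.4% of thinned control cells and in 38.3% of thinned mutant cells. Of cells with Foxf2, 56.4% of control (22 cells) and 73.3% of mutant (33 cells) also held Foxd1. Foxc1 and Foxc2 were counted together in 4.91% of control and 7.22% of mutant cells, against 1.62% and 2.70% if they were independent. No test was made on these shares, and Foxd1 was itself counted in more mutant cells, 21.3% against 12.9%.

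The finer clusters were made on all mesenchyme, so they are not exact parts of the clusters above and can hold cells from outside them. The 2 finer frontonasal-like clusters showed different patterns. In the finer cluster led by Crym (494 control and 300 mutant cells), which had the highest control levels of Tfap2a and Tfap2b among the finer mesenchyme clusters (71.6 and 242 CPM), the Foxc, Foxd, Foxf2 and Foxl1 genes were higher in the mutant. Foxl1 went from 4.40 to 13.8 CPM (36 and 69 UMIs, log2 ratio 1.65, 1.05 to 2.27), Foxf2 from 13.3 to 35.4 CPM (109 and 177 UMIs, 1.41, 1.06 to 1.77) and Foxd1 from 98.7 to 213 CPM (808 and 1063 UMIs, 1.11, 0.97 to 1.24). Foxc2 went from 50.7 to 95.4 CPM (0.91, 0.72 to 1.11) and Foxc1 from 82.5 to 121 CPM (0.55, 0.39 to 0.71). Foxl2 was at 11.49 and 12.2 CPM (0.087, -0.40 to 0.57) on 94 and 61 UMIs, although thinning moved that ratio to 0.83. Of the 10 members, 5 were 1.5-fold or more higher (3.26% of 9008 genes) and none lower (1.92%), with 8 intervals above 0 (13.9%) and none below (10.2%). So the interval of Foxf1, which was lower in the frontonasal-like cluster, did not lie below 0 in these cells.

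The finer clusters held partly different cells when the libraries were not integrated, since 91.5% of control and 65.7% of mutant Crym-led cells, and 58.7% and 37.4% of Gata3-led cells, were then also frontonasal-like. In the finer cluster led by Gata3 (746 and 486 cells), Foxl2 and Foxp2 were the 2 members that were higher by 1.5-fold (1.52% of 9741 genes). Foxl2 went from 40.6 to 75.4 CPM (490 and 575 UMIs, log2 ratio 0.89, 0.72 to 1.07) and Foxp2 from 97.0 to 160 CPM (0.73, 0.61 to 0.84). Foxd1 did not differ beyond counting error (13.2 CPM in both libraries, 0.0080, -0.37 to 0.38), nor did Foxf2 on 57 and 27 UMIs (-0.42, -1.13 to 0.27). Foxc1 was lower, from 18.97 to 12.98 CPM (229 and 99 UMIs, -0.55, -0.90 to -0.20), although the ratio was -0.16 among the cells that were also frontonasal-like without integration. Foxc2 was at 10.3 and 7.47 CPM (-0.46, -0.94 to 0.0051). Foxf1 went from 14.4 to 4.20 CPM (174 and 32 UMIs, -1.78, -2.37 to -1.23) and was the 1 member lower by 1.5-fold (0.76% of genes). Of the 8 members with at least 100 UMIs, 2 had an interval above 0 (9.41% of genes) and 2 below (7.02%). Foxl1 had 3 control and 0 mutant UMIs here, and no ratio is given.

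**Figure D3:**
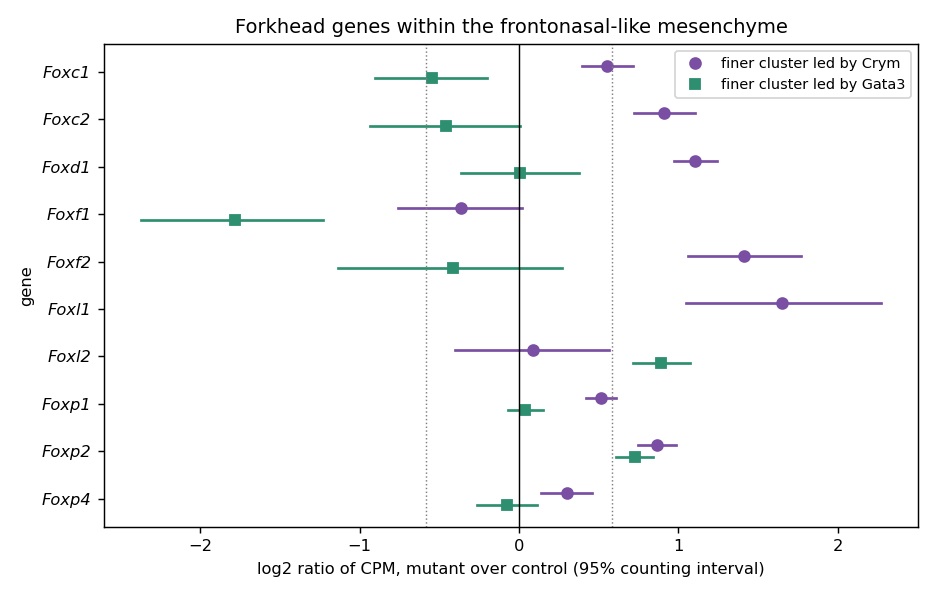
Log2 ratio of CPM, mutant over control, in the 2 finer frontonasal-like clusters, led by Crym (purple circles) and by Gata3 (green squares). Lines are 95% counting intervals, dotted lines mark 1.5-fold, and Foxl1 has too few UMIs in the Gata3-led cells to be drawn. Foxd1 is at 1.11 and 0.0080, Foxf2 at 1.41 and -0.42, Foxl2 at 0.087 and 0.89, and Foxp2 is high in both.

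Other markers moved with these groups. The 8 frontonasal markers summed to 3970 CPM in control and 2122 CPM in mutant frontonasal-like cells, and to 4993 and 1889 CPM in the Crym-led cells; their part in the result was not tested. Zic1, a gene of the Vtn/Zic1 cluster, was at 8.80 CPM in control and 69.6 CPM in mutant Crym-led cells. Of the mesenchyme clusters, that cluster was also the highest control site of Foxc1, Foxc2, Foxd1 and Foxl1. The part of such cells in the Crym-led ratios is not reported here.

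Outside the frontonasal-like cells, Foxd1 alone of the members had an interval above 0 in each of the other 4 clusters. It went from 21.7 to 34.5 CPM in the maxillary-like (log2 ratio 0.67, 0.43 to 0.91), from 68.8 to 98.5 in the mandibular-like (0.52, 0.36 to 0.67), from 65.5 to 86.9 in the Hoxa2/Emx2 (0.41, 0.26 to 0.55, but 0.11 when clusters were made without integration) and from 155 to 207 in the Vtn/Zic1 cluster (0.42, 0.27 to 0.57). In that last cluster mural markers summed to 357 CPM in control and 730 in mutant cells, skeletal muscle markers to 1.43 and 36.6, and blood markers to 2652 and 12.9, and their part in the result was not tested. All control mesenchyme held 1 haemoglobin-rich barcode. Among the Hoxa2/Emx2-like cells of the finer clustering, the Foxd1 difference was in a cluster led by Cyp26a1 and Shisa3 (61 and 278 UMIs, 35.1 and 106 CPM, log2 ratio 1.59, 1.19 to 2.01). In the finer cluster led by Hoxa2 and Dlx3 it was 0.099 (-0.077 to 0.28). Foxf2 was higher in the mandibular-like (0.68, 0.42 to 0.93), maxillary-like (0.53, 0.24 to 0.81) and Hoxa2/Emx2 (0.30, 0.031 to 0.58) cells, and its Vtn/Zic1 interval held 0 (0.27, -0.12 to 0.66).

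**Figure D4:**
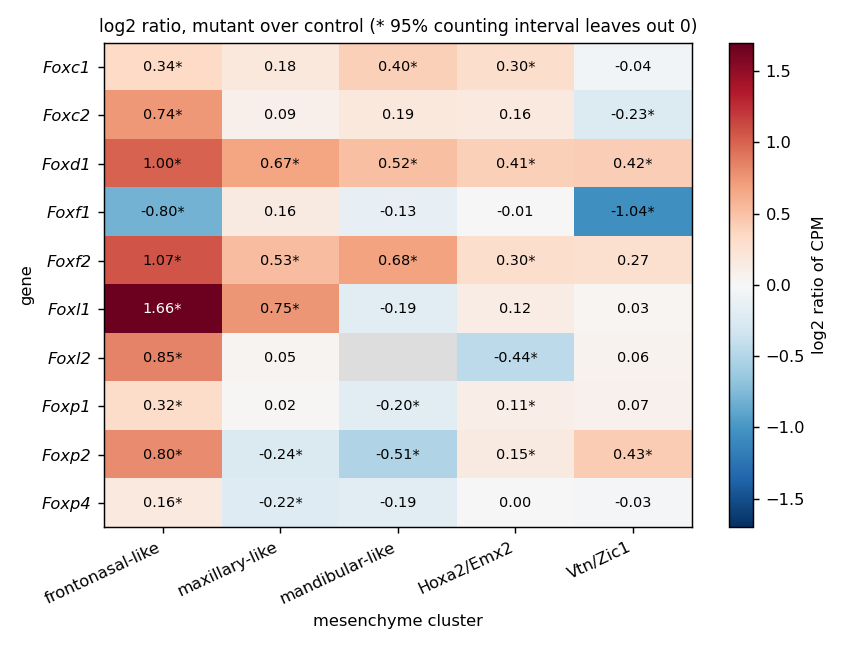
Log2 ratio of CPM, mutant over control, for each gene (rows) in the 5 mesenchyme clusters (columns), red where the mutant is higher and blue where it is lower; an asterisk marks a 95% counting interval that leaves out 0, and grey marks fewer than 20 UMIs. Foxd1 is red in all 5 clusters, whereas Foxp2 runs from 0.80 in the frontonasal-like to -0.51 in the mandibular-like cluster.

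The Foxp genes changed direction between clusters. Foxp2 was lower in mutant mandibular-like cells, 81.8 and 57.4 CPM (916 and 366 UMIs, log2 ratio -0.51, -0.69 to -0.34), and higher in mutant Vtn/Zic1 cells, 260 and 349 CPM (1091 and 1403 UMIs, 0.43, 0.31 to 0.54). In maxillary-like cells it was at -0.24 (-0.43 to -0.058), a value that turned to 0.38 when clusters were made without integration and was 0.068 (-0.093 to 0.23) in the finer maxillary-like cluster led by Osr2. Foxp1 was at -0.20 (-0.30 to -0.099) in mandibular-like cells, on 2432 and 1207 UMIs, and at 0.019 in maxillary-like cells. The mandibular-like difference of Foxp2 was seen in the Gpr50-led finer cluster (110 and 88.4 CPM, -0.31, -0.52 to -0.10) and in the Lratd1-led one, where Foxp2 was at 58.2 and 27.5 CPM (356 and 89 UMIs, log2 ratio -1.08, -1.43 to -0.74), Foxp1 at 160 and 112 CPM (-0.51) and Foxp4 at 46.7 and 32.8 CPM (-0.51).

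The Foxf1 values varied between clusters. In its main site, the mandibular-like cluster, it was at 83.9 and 76.5 CPM (940 and 488 UMIs, -0.13, -0.29 to 0.026). In the Gpr50-led finer cells, which held nearly all of this signal, it was lower, at 176 and 142 CPM (892 and 455 UMIs, -0.31, -0.47 to -0.14). In maxillary-like cells Foxf1 was at 18.1 and 20.2 CPM (0.16, -0.14 to 0.45). In the Vtn/Zic1 cluster it had 56 and 26 UMIs (-1.04, -1.78 to -0.35). In maxillary-like cells Foxc1 was at 4.80 and 5.44 CPM (58 and 49 UMIs, 0.18, -0.40 to 0.75), but at 1.27 after thinning, 0.94 without integration and 0.71 (0.28 to 1.15) in the Osr2-led finer cluster, while Foxc2 was at 0.093 (-0.31 to 0.49). In Vtn/Zic1 cells, their highest site, Foxc1 was at 187 and 182 CPM (-0.040, -0.19 to 0.11) and Foxc2 at 96.8 and 82.4 CPM (-0.23, -0.45 to -0.019). Counts of members were read against all genes with at least 100 UMIs in each cluster. In mandibular-like cells 1 of 8 members, Foxf2, was 1.5-fold or more higher (0.856% of genes) and none lower (1.54%), with 3 intervals above 0 (7.68%) and 2 below (9.48%). In maxillary-like cells 1 of 9, Foxd1, was higher (0.946%) and none lower (0.894%), with 2 intervals above 0 (9.4%) and 2 below (7.89%), and Foxd1 was at 0.31 after thinning, under 1.5-fold. In the finer maxillary-like cluster led by Osr2 (625 and 443 cells), 4 of 10, Foxc1, Foxd1, Foxf2 and Foxl1, were higher (0.999%) and none lower (0.833%), with 6 intervals above 0 (9.43%) and none below (7.53%). In the Hoxa2/Emx2 cluster none of 10 was higher (2.41%) or lower (1.09%), with 5 intervals above 0 (13.9%) and 1 below (10.2%), that of Foxl2 on 113 and 86 UMIs (-0.44, -0.86 to -0.021). In the Vtn/Zic1 cluster none of 8 was higher (3.48%) or lower (1.12%), with 2 intervals above 0 (11.8%) and 1 below (9.64%).

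In the neural class 6 members had 100 UMIs, none was 1.5-fold apart, and Foxp1 alone had an interval above 0 (117.6 and 127 CPM, 0.11, 0.036 to 0.19). In that class 1.46% of genes were 1.5-fold or more higher and 1.19% lower, and 11.8% had an interval above 0 and 9.43% below. In the finer neural groups only 3 or 4 members had at least 100 UMIs, so the medians rest on few genes. The median log2 ratio over these members was 0.39 in Otp neurons (4 members, 494 control and 770 mutant cells), against 0.026 over all genes. It was -0.0066 in brain progenitors (4 members) and 0.0041 in Atoh1/Hoxb3 cells (3). In Gad2 neurons (51 control and 149 mutant cells) it was -0.24 (3 members) and in Sim1 neurons 0.00092 (3). Blood markers summed to 9492 CPM in control and 1.24 CPM in mutant Otp neurons, and their part in the result was not tested. In the glia-like class, where neuron markers summed to 2446 CPM in control and 359 in mutant cells, Foxp1 (0.23, -0.000048 to 0.45), Foxp2 (-0.081, -0.30 to 0.14) and Foxp4 (0.23, -0.021 to 0.48) had enough UMIs, and each interval held 0 (17.8% of genes lay above 0 and 12.9% below). None of the 3 was 1.5-fold apart, as were 6.26% of genes upward and 4.82% downward. All these values are sums over the cells of a class, in which fewer expressing cells and less RNA per cell cannot be told apart.

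Genes within 5 kb of a member were read as a separate measure of the same loci. Fendrr, whose 5′ end faces that of Foxf1 across 1.28 kb, followed Foxf1, with 124 control and 42 mutant UMIs in frontonasal-like cells (log2 ratio -0.84, -1.38 to -0.32) and 243 and 129 in mandibular-like cells (-0.10, -0.42 to 0.21). Fendrr had 47 and 23 UMIs in the Crym-led cells (-0.32, -1.11 to 0.43) and 80 and 19 in the Gata3-led cells (-1.41, -2.22 to -0.68). The noncoding gene 1700018A04Rik starts 24 bases from Foxf2 on the other strand. It had 11 and 33 UMIs in the Crym-led cells (2.30, 1.28 to 3.43) and 11 and 1 in the Gata3-led cells, too few for a ratio. Foxl2os, which overlaps the first 12 bases of Foxl2 on the other strand, had 14 and 21 UMIs in the Gata3-led cells (1.25, 0.20 to 2.34). The strand setting of the counting is not given in the sources used here, so whether reads of Foxl2 and Foxl2os in the overlap were told apart is not known. The same holds for Foxp4 and Gm15556, an antisense gene within it. Gm20705 lies within Foxp1 on the same strand and had 48 control and 25 mutant UMIs in mesenchyme. Mthfsd, which lies 3484 bases beyond the other end of Foxf1, was at 20.3 and 19.1 CPM in frontonasal-like cells (-0.086, -0.33 to 0.15).

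The rest of the forkhead family was set beside the members. Of 34 other forkhead genes, 12 had at least 100 UMIs in mesenchyme and none was 1.5-fold higher (3.03% of all genes) or lower (1.08%), and their median log2 ratio was -0.0032. Foxn3, Foxk2 and Foxj3, the most counted, were at 0.023 (-0.032 to 0.078), -0.030 (-0.13 to 0.071) and -0.072 (-0.19 to 0.046). None of the 12 had an interval below 0 (13.4% of genes) and 3 lay above it (20.8% of genes). The 3 with an interval above 0, named here after their values were seen, were Foxd2 (0.24, 0.093 to 0.39), Foxq1 (0.45, 0.057 to 0.85) and Foxo3 (0.18, 0.0097 to 0.34). In frontonasal-like cells all 11 intervals of those with enough UMIs held 0.

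Genes of the Hedgehog pathway were set beside the members because several forkhead genes are its targets. Of 14 such genes, 11 had at least 100 UMIs in mesenchyme and none was 1.5-fold higher (3.03% of all genes) or lower (1.08%), with 5 intervals above 0 (20.8% of all genes) and 1 below (13.4%) and a median of 0.066, against 0.018 over all genes. Ptch1, the receptor and a direct target, was at 83.2 and 97.7 CPM (4844 and 4271 UMIs, log2 ratio 0.23, 0.17 to 0.29). Hhip, a decoy receptor and target, was at 2.78 and 3.75 CPM (0.43, 0.11 to 0.75). Among the co-receptors, Gas1 (0.066, 0.033 to 0.099) and Boc (0.18, 0.019 to 0.34) were higher and Cdon was lower (24.6 and 19.5 CPM, -0.34, -0.46 to -0.22). The transducer Smo was at 0.099 (0.043 to 0.16).

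The effectors of the pathway did not differ beyond counting error, with Gli1 at -0.020 (-0.18 to 0.14), Gli2 at -0.045 (-0.17 to 0.078) and Gli3 at -0.026 (-0.090 to 0.038). Intervals also held 0 for Sufu (-0.12) and Disp1 (0.068). The ligand genes were almost uncounted in mesenchyme, with 12 control and 41 mutant UMIs of Shh, 2 and 0 of Ihh and 2 and 0 of Dhh. In frontonasal-like cells Hhip was the 1 gene of the list with at least 100 UMIs that passed 1.5-fold, at 57 and 55 UMIs (0.67, 0.11 to 1.23), while Ptch1 was at 0.27 (0.14 to 0.41), Gli1 at 0.27 (-0.070 to 0.62) and Cdon at -0.41 (-0.62 to -0.20).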

How the data were processed

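The deposited values are whole-number counts of UMIs per gene and barcode, which the authors made from 10x 3′ libraries with Cell Ranger against mm10; the matrix header gives version 6.0.0. The processing notes also name Seurat 4.3.0. Kept cells had at most 10% of UMIs from mitochondrial genes and between 200 and 7500 genes. The libraries (83542433 and 79206144 UMIs) were integrated with Seurat 5.3.0 in R 4.3.3 (2000 variable genes, 30 dimensions), and class resolution was 0.05. This gave 3 classes, with neurons and brain progenitors in 1, so neural groups came from a resolution of 0.2. Mesenchyme was clustered again (20 dimensions, resolution 0.2, and 0.6 for finer clusters). The members, Tfap2a, Tfap2b, genes the study names as changed, and sex-linked genes, 34 in all, took no part. Clusters were named from marker lists. Doublets were called with Scrublet in Scanpy 1.11.5 (1.65% and 3.06% of cells) and kept.

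UMIs were summed per library and group of cells and divided by all UMIs of that group (CPM). Levels have exact Poisson, ratios exact conditional binomial and shares exact Clopper-Pearson intervals, at 95%. They cover counting error only. Genes with at least 100 UMIs over both libraries entered counts of genes, and cluster ratios need 20. The scripts were tested on simulated counts. The scaling of edgeR 4.0.16 (TMM) was an alternative. The members, lists and tests were chosen with earlier results of these data known. All 10 members, 14 Hedgehog genes, the 3 other forkhead genes with most UMIs and the genes most like each member in control cells were to be named. Some genes of the lists are not reported here.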

Additional observations from a re-analysis of the deposited data

Results flagged for a closer look

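The genes below were higher in the mutant in one group of mesenchyme cells and lower in another, with counting intervals that left out 0 on both sides. The difference between the groups was not tested, since each genotype had 1 library. Foxc1 had a log2 ratio of 0.55 in the Crym-led and -0.55 in the Gata3-led frontonasal-like cells. The Gata3-led value moved outside its interval, closer to 0, among the cells that were also frontonasal-like without integration. Foxc2 was at 0.74 in the frontonasal-like and -0.23 in the Vtn/Zic1 cluster. Foxl2 was at 0.85 in the frontonasal-like and -0.44 in the Hoxa2/Emx2 cluster. Foxp1 was at 0.32 in the frontonasal-like, 0.11 in the Hoxa2/Emx2 and -0.20 in the mandibular-like cluster. Foxp2 was at 0.80 in the frontonasal-like, 0.43 in the Vtn/Zic1 and 0.15 in the Hoxa2/Emx2 cluster, and at -0.51 in the mandibular-like and -0.24 in the maxillary-like cluster. Foxp4 was at 0.16 in the frontonasal-like and -0.22 in the maxillary-like cluster. The maxillary-like values changed with the clusters: in the finer maxillary-like cluster led by Osr2, Foxp2 was at 0.068 and Foxp4 at -0.12, with intervals that held 0, and Foxp2 was at 0.38 in maxillary-like cells without integration.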

How the results depend on the processing

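No paired analysis was possible because each genotype had 1 library, and no library could be left out. Alternatives for the mesenchyme and frontonasal-like ratios, of which TMM scaling, removal of doublets, clustering without integration, a class resolution of 0.2, finer cluster shares held fixed, and removal of the neural-gene cluster with haemoglobin-rich barcodes left each ratio within its counting interval, turned no sign. Equal weight per cell moved Foxc2 to 0.25 in mesenchyme and 0.56 in the frontonasal-like cluster. Thinning to 5000 UMIs moved Foxc2 to 0.19 and 0.52 there, and Foxp1 to 0.21 in mesenchyme. With cluster shares held fixed, mesenchyme ratios were 0.22 for Foxc1, -0.19 for Foxf1, 0.12 for Foxp1 and 0.34 for Foxp2. Without thinning, the difference in the share of mesenchyme cells with a UMI was 6.71 points for Foxc1 (4.42 thinned), 4.30 for Foxc2 (1.85), 11.9 for Foxd1 (8.84), 6.45 for Foxf2 (3.04) and 2.96 for Foxl2 (1.63). Without a minimum of 100 UMIs, 2009 genes in place of 380 were 1.5-fold or more higher in mesenchyme and 1497 in place of 136 lower, and of the other forkhead genes 6 were higher and 1 lower, and of the Hedgehog genes 1 was higher. In the other clusters, clustering without integration moved 9 of 39 ratios outside their intervals, and turned Foxp2 in maxillary-like cells from -0.24 to 0.38. Among those that moved were Foxd1 (0.11) and Foxf1 (-1.48) in the Hoxa2/Emx2 cluster. There, thinning moved 10 of 39, among them Foxc1 (1.27) and Foxd1 (0.31) in maxillary-like cells. The finer clusters moved 3 of 10 highest levels, those of Foxf1, Foxf2 and Foxl2. In the neural class, removal of doublets moved Foxc1 to -0.83, Foxc2 to -0.80 and Foxf1 to 1.44, on few UMIs. The cause was not tested for any of these. The alternatives with mesenchyme clusters made without integration, fixed finer shares, removal of haemoglobin-rich barcodes and those on the finer frontonasal-like clusters were chosen after seeing the data. In the Gata3-led cells, restriction to cells that were also frontonasal-like without integration moved Foxc1 to -0.16 and Foxc2 to 0.12. Depth limits Foxl1 most, with 105 UMIs in frontonasal-like cells over both libraries.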
